A study of Rattus norvegicus with 6 samples.

Results

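Heparan sulfate proteoglycans and the sulfatases that trim their chains were followed in synovial fibroblast-like cells of arthritic rats. The set was chosen by gene name: the sulfatases Sulf1 and Sulf2, the syndecans Sdc1, Sdc2, Sdc3 and Sdc4, the glypicans Gpc1, Gpc3 and Gpc4, and Hspg2, which encodes perlecan. Of these 10 genes, 8 had a row among the 17221 transcript rows of the expression table, and 7 of those passed the filter on low values that left 9820 features. Rows were to be selected on the highest mean CPM over the 6 libraries where a symbol had several, but each of the 8 genes had a single row. The set was proposed with results of these libraries known, among them the rise of Sulf2 with serum of untreated rats, whose values are given as a description. Gpc1 and Hspg2 were not analysed here.

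The cells came from the joint lining of 2 female Wistar rats with collagen-induced arthritis, and those of each rat were divided over 3 sera. In the FBS group the medium held fetal bovine serum, in the MS- group serum of untreated animals, and in the MS+ group serum of animals given mechanical stimulation by needle, which the labels call acupuncture, taken at day 18. Each group had 2 libraries, 1 per rat, for 6 in all, from poly(A)-selected RNA. All 3 groups share the arthritic origin of the cells and their growth in flasks. The ages of the rats and the number of animals behind each serum are not given in the sources used here, and 1 field of the MS- labels calls its animals healthy while others call them arthritic. A replicate is therefore a rat that gave cells. In fits with serum alone, p-values weigh the difference between sera against the spread between the cells of 2 rats. Fits with the rat as a block first take out the difference between the rats. Their p-values weigh the difference between sera against how much it varied between the 2 rats. The fits draw part of that variation from all features. A p-value with the block is thus no measure of agreement between the rats for a single gene. FBS differs from both rat sera in species, so species and any other property of that serum cannot be told apart. Per the study's methods the MS- serum was drawn before therapy began. MS+ and MS- thus differ in the time of sampling as well as in stimulation, and these cannot be told apart.

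The libraries held 5463316 to 5991889 reads counted over the transcript rows. In a library 3 reads, the floor of detection, corresponded to 0.491 to 0.551 CPM (read counts scaled to the depth of the library). All 9 fibroblast markers had reads. Their summed level was 80424 to 87646 CPM in FBS, 62461 to 64780 in MS- and 70473 to 73447 in MS+. Col1a1, Col1a2, Col3a1, Thy1 and Has2 were lower in both rat sera, Col1a1 with means of 37377, 23594 and 27121 CPM (FBS, MS-, MS+). Vim was higher in both, with means of 11733, 13442 and 15266 CPM, and Pdgfrb was higher in MS- alone. The summed shift is thus not shared by all the markers, and its part in the results was not tested. Prg4, the lubricin gene of the joint lining, was low (1.27 to 3.32 CPM), but its row overlaps that of another gene and is uncertain. Decorin and lumican (Dcn, Lum), usual fibroblast products, stayed at or below 0.918 CPM, whereas aggrecan (Acan), best known from cartilage, measured 1453 to 3012 CPM. Col2a1, a collagen gene also known from cartilage, stayed at or below 0.663 CPM. Dcn, Lum, Acan and Col2a1 were picked out after their values were seen. Of the macrophage and leukocyte markers, 6 of 8 had a row, Ptprc, Itgam and Cd3e were at 0, and the sum was 13.8 to 20.5 CPM, mostly Cd14. The sum of the endothelial markers (4 of 6 with a row, Cdh5 at 0) was 0.362 to 2.20 CPM, and that of the epithelial ones (5 of 6, Epcam, Cdh1, Krt18 and Krt19 at 0) 0.183 to 1.28 CPM. The 8 skeletal muscle markers summed to 777 to 1209 CPM, nearly all of it Acta1, with Pax7 at 0.

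Heparan sulfate is a long, negatively charged sugar chain carried by core proteins at the cell surface and in the matrix. Growth factors, chemokines and Wnt proteins bind to it, and the position of the sulfate groups decides which of them bind well. Syndecans cross the membrane, glypicans are held in it by a lipid anchor, and perlecan is secreted. Sulf1 and Sulf2 act outside the cell, where they remove sulfate from glucosamine units within finished chains, which changes the binding of growth factors and Wnt proteins. In the joint lining these molecules sit between fibroblasts and the ligands of the synovial fluid.

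The 4 genes below had a difference past the adjusted threshold in at least 1 comparison, and the stretch upstream of each is shown so that their starts can be compared. Each is the 250 bases before the start of the gene in RefSeq (rat assembly GRCr8), 5′ to 3′ on the strand of the gene. Sulf2 lies at chr3:175323652-175323901 on the minus strand, Sdc4 at chr3:173592924-173593173 on the minus strand, Sdc1 at chr6:37281791-37282040 on the plus strand and Sdc3 at chr5:148249542-148249791 on the plus strand. In rn4, the older assembly used for the expression values, Sdc3 is given on the minus strand. The reason for this difference was not tested. Capitals mark matches, on either strand, to any of 7 motifs: the GC box core GGGCGG, the TATA box core TATAA, the CAAT box core CCAAT, the E box CACGTG, the AP-1 site TGANTCA, the TEAD site GGAATG and the NF-kappaB consensus (given by name).
Sulf2: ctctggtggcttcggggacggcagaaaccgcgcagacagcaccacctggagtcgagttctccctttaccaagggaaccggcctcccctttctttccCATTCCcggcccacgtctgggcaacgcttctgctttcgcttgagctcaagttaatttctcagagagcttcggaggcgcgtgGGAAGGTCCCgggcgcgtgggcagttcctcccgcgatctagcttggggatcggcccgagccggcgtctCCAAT
Sdc4: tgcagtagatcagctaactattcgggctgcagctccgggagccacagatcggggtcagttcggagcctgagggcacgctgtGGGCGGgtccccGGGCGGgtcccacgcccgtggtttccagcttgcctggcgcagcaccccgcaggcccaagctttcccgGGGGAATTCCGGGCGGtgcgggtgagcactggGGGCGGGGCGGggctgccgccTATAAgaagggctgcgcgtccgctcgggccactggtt
Sdc1: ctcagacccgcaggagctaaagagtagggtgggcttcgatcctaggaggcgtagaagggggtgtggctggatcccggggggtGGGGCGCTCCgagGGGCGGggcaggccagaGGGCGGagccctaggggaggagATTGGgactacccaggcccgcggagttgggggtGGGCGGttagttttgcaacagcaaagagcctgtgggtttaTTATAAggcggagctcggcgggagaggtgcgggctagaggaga
Sdc3: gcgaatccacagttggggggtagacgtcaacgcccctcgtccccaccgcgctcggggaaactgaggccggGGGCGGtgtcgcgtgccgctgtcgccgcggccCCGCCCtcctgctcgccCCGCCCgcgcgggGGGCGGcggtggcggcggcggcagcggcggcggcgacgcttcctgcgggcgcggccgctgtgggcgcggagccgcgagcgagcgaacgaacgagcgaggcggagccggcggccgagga

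The Sdc4 stretch held 5 GGGCGG matches (2 of them overlapping each other), a TATAA from 37 to 33 bases upstream and a match to the NF-kappaB consensus from 90 to 81 bases upstream. Sdc1 held 3 GGGCGG and, between 43 and 38 bases upstream, a TATA box core on each strand. It also had a CAAT box core on the opposite strand and an NF-kappaB match from 168 to 159 bases upstream. Sdc3, the stretch richest in G and C (80%), held 4 GGGCGG and no other motif searched. Sulf2 held none, but a CCAAT at the very end, a GGAATG on the opposite strand and an NF-kappaB match from 73 to 64 bases upstream. Among 33469 rat promoters of the same length, the share with a match was 30.5% for GGGCGG, 24% for TATAA, 34% for CCAAT, 5.59% for CACGTG, 6.34% for TGANTCA, 12.1% for GGAATG and 6.33% for the NF-kappaB consensus. Stretches were at hand for 7 of the 10 genes. GGGCGG was not particular to the genes shown, as Gpc3 and Gpc4 held 4 matches each. The matches are letters in a window, and binding was not measured.

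**Figure D1:**
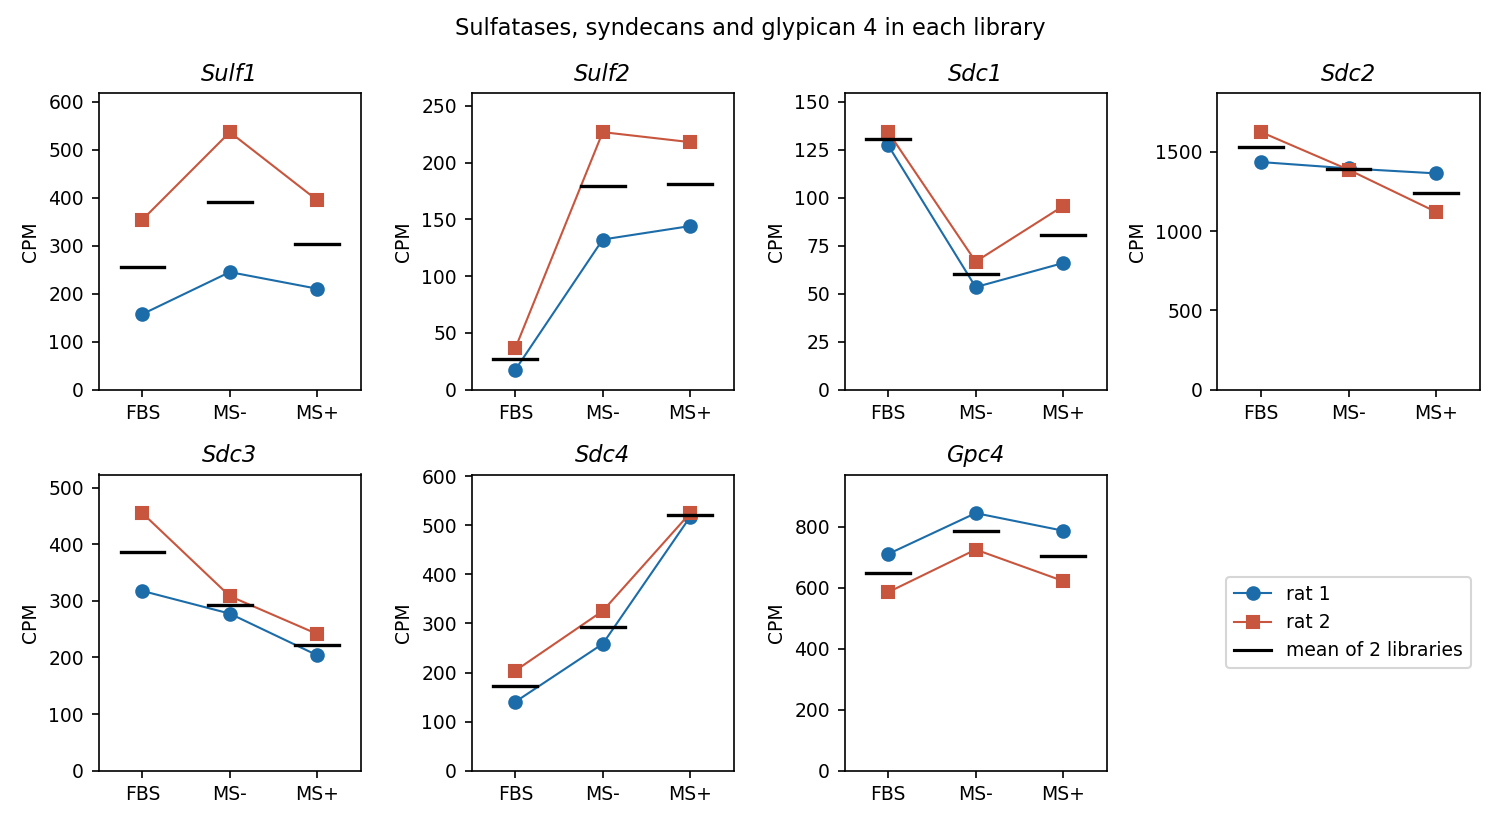
Level of each tested gene in each of the 6 libraries (CPM, axes from 0), by serum, with the libraries of 1 rat joined by a line and black bars for the mean of 2 libraries. Sulf2 lies at 17.5 and 36.5 CPM in FBS and at 132 or above in both rat sera, Sdc4 climbs from FBS over MS- to MS+, and Sdc1 is highest in FBS.

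Sulf2 was higher in both rat sera than in FBS, while the levels of Sulf1 overlapped between the sera. Sulf2 (NM_001034927; minus strand of chromosome 3, 157197256 to 157298389 in rn4) stood at 17.5 CPM in rat 1 and 36.5 CPM in rat 2 with FBS, 132 and 227 CPM with MS-, and 144 and 218 CPM with MS+. Both rat sera stood clear of FBS and overlapped each other. The means were 27.0 ± 13.4 CPM in FBS, 180 ± 66.9 CPM in MS- and 181 ± 52.3 CPM in MS+ (SD, n = 2 each). Against FBS the CPM of MS- was 7.55 times as high in rat 1 and 6.22 times in rat 2. That difference, a log2 fold change of 2.73 (SE 0.39), is given as a description only, because it was known when the set was drawn up. Between MS+ and FBS, Sulf2 rose by 2.76 (SE 0.39) on the log2(CPM + 1) scale, with a limma adjusted p of 0.0108, and by 8.23 and 5.98 times in CPM in the 2 rats. This comparison shares its FBS libraries with the former one. Leaving out FBS replicate 1 took the adjusted p to 0.0519 (a rise of 2.25), MS+ replicate 1 to 0.0582 (3.06) and MS+ replicate 2 to 0.0694 (2.46), so that each of these libraries decided the call. Between MS+ and MS- the difference was 0.03 with a 95% interval from -0.89 to 0.96 (limma adjusted p 0.981). With the rat as a block the interval was -0.19 to 0.26 and the adjusted p 0.892.

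Sulf1 (NM_134378, chromosome 5, 5582896 to 5748106, minus strand) measured 157 and 354 CPM in FBS, 245 and 537 CPM in MS-, and 210.4 and 395 CPM in MS+, rat 1 before rat 2. The groups overlapped in every comparison, while rat 2 was above rat 1 in each serum, by 2.25, 2.19 and 1.88 times. The log2 difference of MS- from FBS was 0.62 (SE 0.51, limma adjusted p 0.540). With the rat as a block its SE was 0.09 and the adjusted p 9.33e-05, with CPM ratios of 1.56 and 1.52 in the 2 rats. MS+ against FBS gave 0.29 (adjusted p 0.759, blocked 0.0213), and MS+ against MS- gave -0.33 (0.819, blocked 0.0236). Among the fits run, Sulf1 passed only in the 2 with the rat as a block (limma and edgeR).

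Sulf2 also ran higher in rat 2 in each serum, by 2.08, 1.72 and 1.51 times. The ratio of Sulf2 to Sulf1 CPM in the same library was 0.111 and 0.103 in FBS, 0.540 and 0.423 in MS-, and 0.685 and 0.552 in MS+. Within each rat it was lowest in FBS and highest in MS+. Transcript lengths were not used, so this ratio compares libraries and not the abundance of the genes.

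The syndecans did not move together. Sdc4 was higher with rat serum and higher with MS+ than with MS-, whereas Sdc1 and Sdc3 were lower than in FBS. Sdc4 (NM_012649, chromosome 3, 155446138 to 155464825, minus strand) encodes the syndecan of focal adhesions, where it works beside integrins. It measured 140.3 and 204 CPM in FBS, 258 and 326 CPM in MS-, and 517 and 525 CPM in MS+. No 2 groups overlapped. The means were 172 ± 44.9, 292 ± 47.4 and 521 ± 5.4 CPM. Sdc4 rose by 1.62 (SE 0.19) in MS+ over FBS, with a limma adjusted p of 0.00694. Each MS+ library decided this call, with an adjusted p of 0.0576 without MS+ replicate 1 (a rise of 1.63) and 0.0506 without MS+ replicate 2 (1.61). In MS- over FBS the difference was 0.78 (SE 0.19, adjusted p 0.0726), and among 16 alternatives it passed in 4, with the rat as a block in limma (5.39e-05) and edgeR, with DESeq2 (0.0111) and without FBS replicate 2 (0.0423). In MS+ over MS- it was 0.84 (SE 0.19, 95% interval 0.40 to 1.29). The limma adjusted p for that was 0.144 without the block and 0.000130 with it. In CPM it amounted to 2.00 times in rat 1 and 1.61 times in rat 2. Sdc4 was the tested gene of the set nearest to a call between the 2 rat sera, with an unadjusted limma p of 0.00304.

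Sdc1 (NM_013026, chromosome 6, 32253352 to 32275812, plus strand) encodes the syndecan typical of epithelium and plasma cells. It measured 127 and 134 CPM in FBS, 53.4 and 66.7 CPM in MS-, and 65.9 and 95.6 CPM in MS+. Both rat sera lay below FBS and overlapped each other. Sdc1 fell by 1.12 (SE 0.19) in MS- against FBS, to 0.420 and 0.497 of the FBS level in the 2 rats, with a limma adjusted p of 0.0257. Each FBS and each MS- library decided the call: the adjusted p was 0.126 on leaving out FBS replicate 1, 0.0951 for FBS replicate 2, 0.150 for MS- replicate 1 and 0.0735 for MS- replicate 2. In MS+ against FBS the difference was -0.71 (limma adjusted p 0.0647, blocked 0.000177), and it passed with DESeq2 (0.0331). Between MS+ and MS- it was 0.41 (adjusted p 0.388, blocked 0.0283). The ratio of Sdc4 to Sdc1 CPM was 1.10 and 1.52 in FBS, 4.84 and 4.88 in MS-, and 7.84 and 5.49 in MS+.

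Sdc3 (NM_053893, chromosome 5, 149486028 to 149518849, minus strand), a syndecan with a long extracellular part best known from nerve and muscle, measured 317 and 455 CPM in FBS, 277 and 308 CPM in MS-, and 204 and 241 CPM in MS+. No 2 groups overlapped, and MS+ was lowest. The means were 386 ± 97.1, 293 ± 21.8 and 223 ± 26.6 CPM. Sdc3 fell by 0.77 (SE 0.18) in MS+ against FBS, with a limma adjusted p of 0.0435. This call held only without FBS replicate 1 (0.0429) among the fits with 1 library left out. It was lost without FBS replicate 2 (0.119), MS- replicate 1 (0.0745), MS- replicate 2 (0.0734), MS+ replicate 1 (0.206) or MS+ replicate 2 (0.107). MS- against FBS gave -0.38 (adjusted p 0.288, blocked 0.00855), and MS+ against MS- gave -0.40 (adjusted p 0.371, blocked 0.0123).

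Sdc2 (NM_013082, chromosome 7, 68290558 to 68405183, plus strand), the syndecan typical of fibroblasts and other mesenchymal cells, measured 1436 and 1625 CPM in FBS, 1396 and 1387 CPM in MS-, and 1364 and 1122 CPM in MS+. FBS was highest and MS+ lowest without overlap, at small differences. They were -0.13 for MS- against FBS (SE 0.13, limma adjusted p 0.621), -0.30 for MS+ against FBS (adjusted p 0.196, blocked 0.0336) and -0.17 for MS+ against MS- (adjusted p 0.617). Because RNA was pooled from whole cultures, fewer cells that carry a transcript and less of it per cell cannot be told apart for any of these genes.

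Added over the 4 syndecans, the level was 2021 and 2417 CPM in FBS, 1985 and 2088 CPM in MS-, and 2151 and 1983 CPM in MS+, so that the groups overlapped. The share of Sdc4 in that sum was 6.94% and 8.43% in FBS, 13.0% and 15.6% in MS-, and 24.0% and 26.5% in MS+. Sdc1 held 6.30% and 5.55% in FBS, 2.69% and 3.20% in MS-, and 3.07% and 4.82% in MS+. For Sdc3 the shares were 15.7% and 18.8%, 14.0% and 14.8%, and 9.47% and 12.2%. Sdc2 made up the rest, from 71.1% in rat 1 with FBS to 56.5% in rat 2 with MS+. The shares are of reads and were not divided by transcript length.

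**Figure D2:**
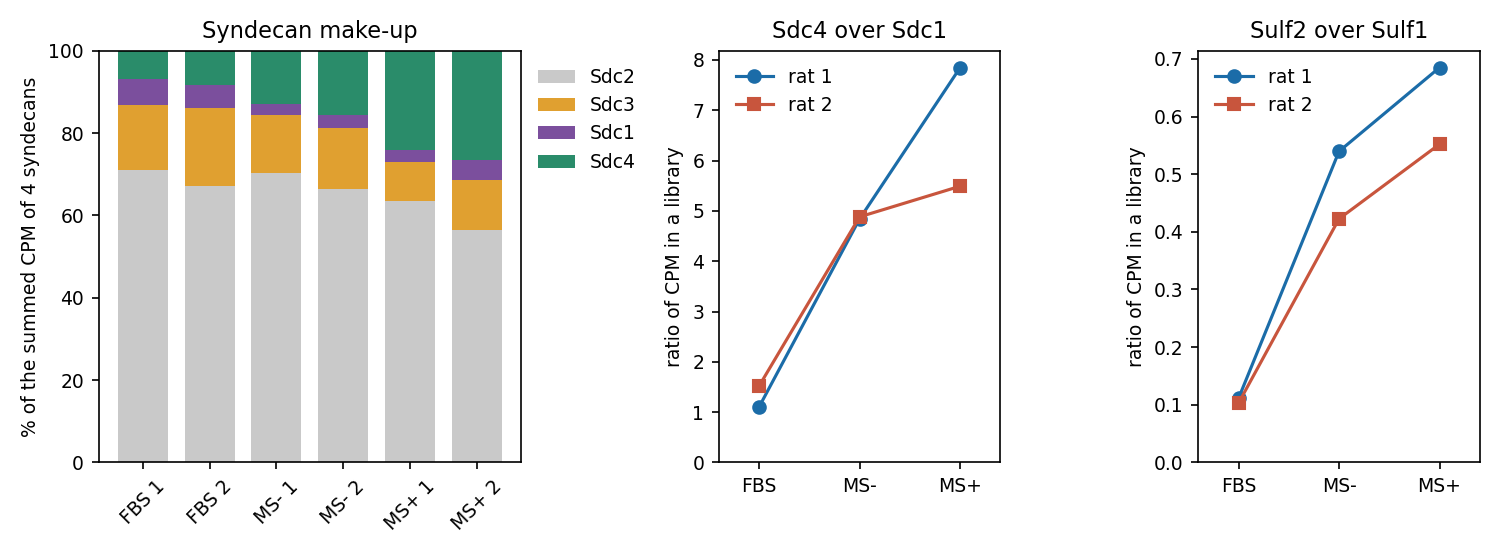
Left, share of each syndecan in the summed CPM of the 4 syndecans (percent, 1 bar per library). Middle and right, ratio of Sdc4 to Sdc1 CPM and of Sulf2 to Sulf1 CPM within each library, with the libraries of 1 rat joined. The Sdc4 share is 6.94% and 8.43% in FBS and 24.0% and 26.5% in MS+, and both ratios are lowest in FBS and highest in MS+ within each rat.

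Among the glypicans, Gpc4 (NM_001014108, chromosome X, 138966579 to 139077074, minus strand), which encodes a core protein that binds growth factors and Wnt proteins, measured 711 and 586 CPM in FBS, 845 and 725 CPM in MS-, and 787 and 622 CPM in MS+. Here rat 1 was the higher one in each serum, unlike in the sulfatases. MS- lay above FBS without overlap, by 0.28 (SE 0.16, limma adjusted p 0.375, blocked 0.0207). MS+ differed from FBS by 0.12 (adjusted p 0.675, 95% interval -0.26 to 0.49) and from MS- by -0.16 (adjusted p 0.701, interval -0.54 to 0.22). Gpc3 (NM_012774), whose loss causes an overgrowth syndrome, had 1 read in all 6 libraries, in MS+ replicate 2. It was not detectable at this depth, where the floor is 0.491 to 0.551 CPM, and was not tested.

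**Figure D3:**
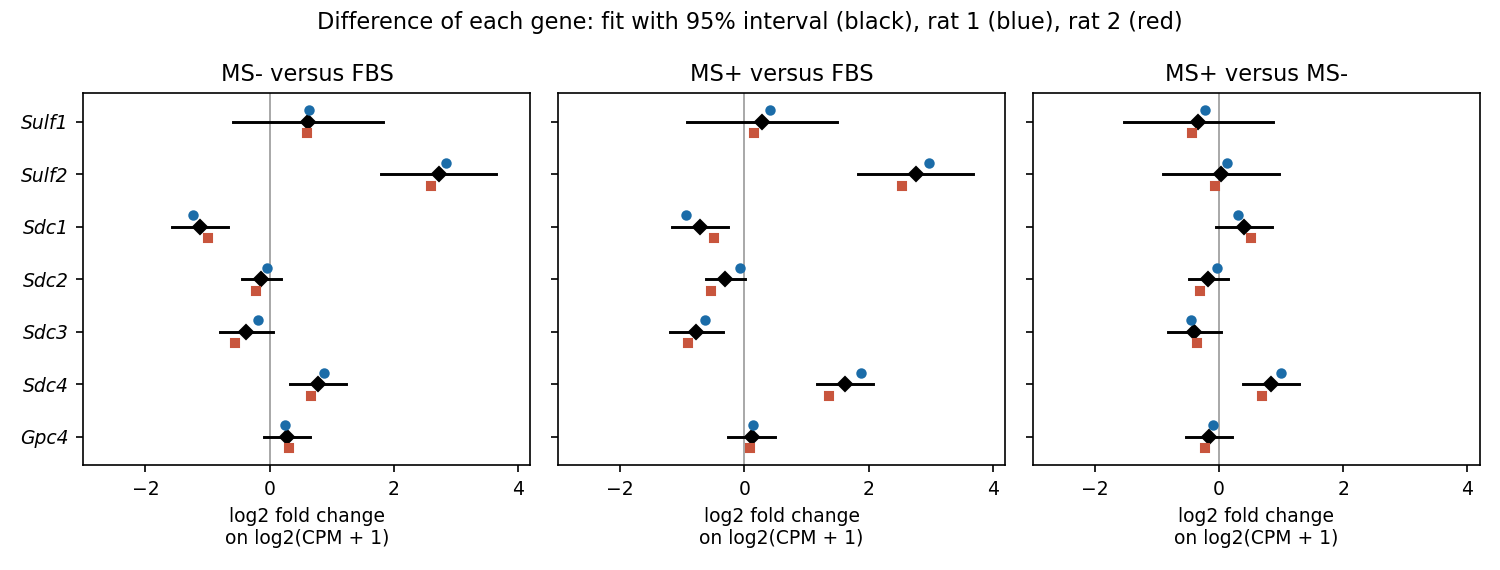
Log2 fold change of each tested gene (difference of mean log2(CPM + 1), n = 2 libraries per group) in the 3 comparisons, as black diamonds with the 95% interval of limma without the rat as a block, and the difference within rat 1 (blue) and rat 2 (red). Sulf2 has the widest distance from 0 in both comparisons with FBS (2.73 and 2.76) and lies at 0.03 between the rat sera, where Sdc4 is the highest (0.84).

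Counted over the set, 2 of 7 tested genes passed the adjusted limma threshold between MS- and FBS, Sulf2 upward and Sdc1 downward. Of all 9820 features, 2.09% passed upward and 2.72% downward. Between MS+ and FBS 3 passed, Sulf2 and Sdc4 upward and Sdc3 downward, against 4.95% and 4.66% of all features. The median log2 difference of the 7 was 0.28 in the MS- comparison with FBS, 0.12 in that of MS+ with FBS and -0.16 in that of MS+ with MS-. Since the set was proposed with results at hand, these counts and medians describe it and are no test of it. Between MS+ and MS- limma called 0 of 7, against 0.0102% of all features upward and 0.0102% downward. At unadjusted p under 0.05 there was 1 of 7, Sdc4, where 14.7% of all features were, so that the count was near the background. On the recovered reads edgeR and limma-voom also called 0 of the set, against 0.0305% and 0.0204% of all features. DESeq2 called 1, Sdc4, against 1.42% of the features it gave an adjusted p.

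The study rule, which asks for a change of 2-fold or more at unadjusted p under 0.05, was met by 2 genes between MS- and FBS (Sulf2, Sdc1), 2 between MS+ and FBS (Sulf2, Sdc4) and 0 between MS+ and MS-, where Sdc4 fell short of the fold limit. Over all features it called 3.62%, 5.30% and 1.24%. DESeq2, which passed Sdc4 in MS- and Sdc1 in MS+ against FBS as well, called 5.45% of all features for MS- and 8.26% for MS+. With the rat as a block, which the labels justify because the same 2 rats occur in each group, the adjusted counts were 6, 6 and 4 of 7, against 20.5%, 28.2% and 10.1% of all features. The 4 between MS+ and MS- were Sdc4 and Sdc1 upward and Sdc3 and Sulf1 downward. Direction was the same in both rats for 7 of 7 genes in each comparison with FBS, and for 6 of 7 between the rat sera, Sulf2 being the exception. Over all tested features that held for 72.8% (MS- with FBS), 72.3% (MS+ with FBS) and 66.6% (MS+ with MS-). The counts in this paragraph, too, describe a set proposed with results at hand and are no test of it.

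The rest of the heparan sulfate pathway was read from lists of known genes. These lists, and those for other chains below, were drawn up with earlier results of these data known. Their counts and medians thus describe them and are no test of them. Of 11 other core proteins that carry the chain, 7 were tested. In MS+ against FBS 1 passed, downward, where 4.66% of all features did, and in the other comparisons 0. It was Agrn, which encodes agrin, the organiser of the neuromuscular synapse. Agrn measured 53.7 and 59.9 CPM in FBS, 32.2 and 41.0 CPM in MS-, and 23.1 and 25.1 CPM in MS+. It fell by 1.20 (SE 0.15) in MS+ against FBS, with a limma adjusted p of 0.00813, which was 0.0672 without MS+ replicate 1. No 2 groups of Agrn overlapped. The highest of these core proteins in CPM was Col18a1, the collagen of endostatin, at 1086 and 2031 CPM in FBS, 1921 and 2928 CPM in MS-, and 2173 and 3363 CPM in MS+. Rat 2 was the higher one in each serum. Its difference between MS- and FBS was 0.67 (adjusted p 0.336, blocked 9.89e-05), and between MS+ and MS- 0.19 (adjusted p 0.865). Col18a1 differed most between MS+ and FBS, by 0.86 (unadjusted limma p 0.0463, adjusted 0.174, blocked 7.82e-06), at 2.00 and 1.66 times the FBS level in the 2 rats and with no overlap. The list's median log2 difference was 0.08, 0.15 and 0.19 in the 3 comparisons (MS- with FBS, MS+ with FBS, MS+ with MS-), against 0.0140, 0.000782 and -0.00581 over all features.

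Of 32 genes for synthesis and sulfation of the chain 19 were tested. Limma called 0 against FBS in MS- (all features: 2.09% up, 2.72% down), 1 up and 2 down against FBS in MS+ (4.95% and 4.66%) and 0 between the rat sera (0.0102% each way). Papss2 makes the sulfate donor for all sulfated chains. It measured 66.6 and 52.4 CPM in FBS, 111 and 90.6 CPM in MS-, and 154 and 125 CPM in MS+. Papss1, which makes the same donor and was named after its values were seen, went the other way without an adjusted call. Its levels were 63.2 and 76.3 CPM in FBS, 57.3 and 55.0 CPM in MS-, and 56.8 and 58.4 CPM in MS+. Papss2 rose by 1.22 (SE 0.17) in MS+ over FBS (limma adjusted p 0.0103; 0.0774 at most, on leaving out FBS replicate 2 or MS+ replicate 1, which both lost the call). Ext1 and Ext2 together form the enzyme that lengthens the heparan sulfate chain, and both fell. Ext1 measured 179 and 193 CPM in FBS, 124 and 145 CPM in MS-, and 99.99 and 108 CPM in MS+, and fell by 0.83 (SE 0.11, limma adjusted p 0.00921) in MS+ against FBS. That call was lost without FBS replicate 2, MS+ replicate 1 or MS+ replicate 2 (0.0746 at most). Ext2 fell by 0.45 (SE 0.09, adjusted p 0.0309), from 228 and 228 CPM in FBS to 169 and 165 CPM in MS+. Without any 1 of the 6 libraries its adjusted p was 0.0515 to 0.138. Hs6st2, the highest of the list in CPM and an enzyme that adds sulfate of the kind the Sulf proteins remove, followed the rat, with 181 and 457 CPM in FBS, 233 and 552 CPM in MS-, and 225 and 434 CPM in MS+. It differed by 0.32 between MS- and FBS (adjusted p 0.802, blocked 0.0257) and by -0.20 between MS+ and MS- (adjusted p 0.912). The list's medians were 0.06, 0.05 and -0.03, and with the block it held 2 rises and 3 falls, 4 and 3, and 3 and 2, against 20.5%, 28.2% and 10.1% of all features in either direction.

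Of 12 breakdown genes 8 were tested, and limma called 0 in each comparison, with medians of 0.09, 0.11 and -0.07. At 4.95% up and 4.66% down over all features in MS+ against FBS, and fewer in the other comparisons, a count of 0 of 8 says little about the list. The study rule was met by 1 of the 8 in MS+ against FBS (5.30% of all features), Hpse2, named after its values were seen, which encodes a relative of heparanase. Hpse2 had 3 and 2 reads in FBS, 9 and 5 in MS- and 18 and 10 in MS+. Its FBS values lay at or below the floor of 3 reads, and it passed the filter on low values through MS+ alone. Its pass and p-values depend on that high group and are given as a description. The log2 difference of Hpse2 between MS+ and FBS was 1.30 (SE 0.32, limma adjusted p 0.0530, blocked 0.00376). Idua, the iduronidase of the lysosome and the highest of them in CPM, differed by 0.45 (MS- with FBS, adjusted p 0.117, blocked 0.00862), 0.32 (MS+ with FBS, 0.175, blocked 0.0399) and -0.13 (MS+ with MS-, 0.717), but its row overlaps that of another gene and is uncertain. Of 11 genes for shedding, cleavage and tail binding of the core proteins 8 were tested, and limma called 0 in each comparison as well. Mmp14, a membrane protease that cuts syndecans, measured 993 and 856 CPM in FBS, 987 and 726 CPM in MS-, and 1039 and 707 CPM in MS+, with differences of -0.12, -0.10 and 0.02. With the block 1 breakdown gene rose in MS- and 2 in MS+ over FBS, and 1 gene of the shedding list fell in MS- against FBS, each of 8 and against 20.5% (MS-) and 28.2% (MS+) of all features.

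Proteoglycans with other chains were set beside these. Of 18 genes listed for proteoglycans of chondroitin, dermatan or keratan sulfate and their relatives, 10 were tested. Ogn, which encodes the small matrix proteoglycan osteoglycin, measured 293 and 182 CPM in FBS, 567 and 684 CPM in MS-, and 555 and 568 CPM in MS+. It rose by 1.43 (SE 0.21, limma adjusted p 0.0167) in MS- and by 1.28 (SE 0.21, adjusted p 0.0181) in MS+ over FBS. The call in MS- was lost without either MS- library (0.112 at most) and that in MS+ without either MS+ library (0.105 at most). Acan, the aggregating proteoglycan of cartilage, fell by 0.78 (SE 0.15, adjusted p 0.0409) in MS- against FBS, from 2585 and 3012 CPM to 1453 and 1827 CPM, and stood at 2671 and 2538 CPM in MS+. Its call was lost without any 1 of the 6 libraries (0.220 at most). Limma thus called 1 upward and 1 downward of 10 in MS- (2.09% and 2.72% of all features) and 1 upward in MS+ (4.95%). Omd and Aspn encode small matrix proteins related to that of Ogn and were named after their values were seen. Both met the study rule in MS- against FBS, at 1.78 and 1.89, without an adjusted limma call (0.134 and 0.175). Omd met it in MS+ also, at 1.72 (0.103). Biglycan (Bgn), the highest in CPM, differed by 0.09 between MS+ and MS- (adjusted p 0.888). Acan was higher in MS+ than in MS- without overlap, by 0.68 (limma adjusted p 0.147, blocked 0.000693). The medians of the list were 0.19, 0.41 and -0.09.

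Of 16 enzymes for chondroitin and dermatan sulfate 12 were tested. Limma called 2 upward against FBS in MS- (2.09% of all features upward), 3 upward against FBS in MS+ (4.95%) and 0 between the rat sera, so that 10, 9 and 12 did not pass. With the block 6, 6 and 3 passed, all upward, where 20.5%, 28.2% and 10.1% of all features passed in either direction. Csgalnact1, which starts the chondroitin chain, measured 179 and 214 CPM in FBS, 285 and 347 CPM in MS-, and 399 and 413 CPM in MS+. It rose by 0.68 (SE 0.13, limma adjusted p 0.0375) and 1.05 (SE 0.13, adjusted p 0.00830) over FBS. Dse, the epimerase that makes dermatan sulfate, rose by 0.62 (SE 0.09, adjusted p 0.0125) and 0.81 (SE 0.09, adjusted p 0.00526), from 216 and 202 CPM in FBS to 321 and 320 CPM in MS- and 370.1 and 365 CPM in MS+. Ust, a sulfotransferase for uronic acid, rose by 1.18 (SE 0.28, adjusted p 0.0476) in MS+ over FBS, from 15.6 and 28.0 CPM to 43.4 and 54.5 CPM.

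Single libraries bore on these calls too. In MS- against FBS, Csgalnact1 lost its call without any 1 of the 6 libraries (0.192 at most) and Dse without either FBS or either MS- library (0.1001 at most). In MS+ against FBS, Csgalnact1 lost it without either MS+ library (0.0650 at most) and Dse without MS+ replicate 1 (0.0547), whereas Ust kept it only without FBS replicate 2 (0.194 at most). Chpf, a chondroitin polymerase subunit and the highest of the list in CPM, differed by 0.24 between MS+ and MS- (adjusted p 0.422). The medians of the list were 0.36, 0.30 and 0.18.

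**Figure D4:**
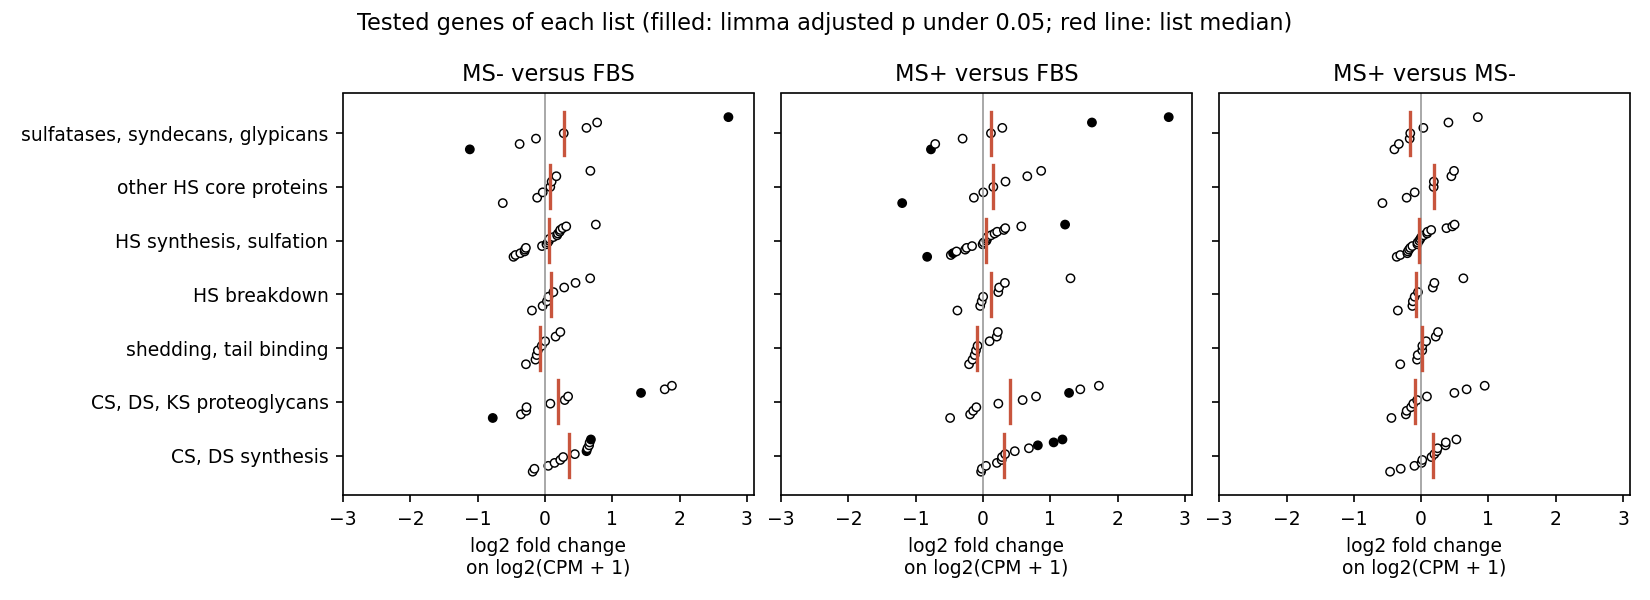
Log2 fold change of every tested gene of the set and of the 6 pathway lists in the 3 comparisons, 1 point per gene, filled where the limma adjusted p was under 0.05, with the median of each list as a red line (HS, heparan sulfate; CS, chondroitin sulfate; DS, dermatan sulfate; KS, keratan sulfate). The medians of the chondroitin and dermatan sulfate enzymes are 0.36, 0.30 and 0.18 and those of the heparan sulfate enzymes 0.06, 0.05 and -0.03.

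As a description, the features whose log2(CPM + 1) followed the sulfatases most closely over the 6 libraries were listed. For Sulf1 they were Tlr3 (Pearson r 0.999), Magi2, Chka, Med24 and Robo2 (0.992). For Sulf2 they included Araf (0.998), Pnisr, Herc3 and Akap9 (0.995). The 6 libraries share 2 rats and 3 sera and are not independent. Tlr3, for example, measured 3.60 and 14.1 CPM in FBS, 7.50 and 24.0 CPM in MS-, and 5.77 and 15.4 CPM in MS+, with rat 2 high in each serum as in Sulf1. Araf followed serum instead, at 11.6 and 13.1 CPM in FBS, 16.6 and 18.8 CPM in MS-, and 17.5 and 18.4 CPM in MS+.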

How the data were processed

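RNA of 6 cultures of rat synovial fibroblast-like cells was sequenced. Per the labels and the study's methods, the authors aligned reads to rn4 with Bowtie2 2.1.0, counted them per transcript with HTSeq 0.5.4p3 and deposited a normalized signal, the CPM scaled by TMM factors of edgeR. Strand use in counting is not given in the sources used here. In units of 1 read, 100% of values were whole (tolerance 1e-06 reads). Without molecular identifiers PCR copies could not be told from molecules, so floors hold for counting error alone. The table gives transcript spans, without lengths, and no row of the set overlaps another. No value column was left unmapped.

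Features with 1 CPM or more in both libraries of at least 1 group (9820 of 17221) were tested two-sided with limma 3.58.1 (lmFit, eBayes with trend, R 4.3.3) on log2(CPM + 1), with the 6 libraries and serum as the only term. The threshold was a Benjamini-Hochberg adjusted p under 0.05 over all features. The study rule was unadjusted p under 0.05, 2-fold or more and a mean of 1 CPM. Fold changes on this scale understate those of low genes. The fits were tested on simulated data.

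Replicate numbers pair the libraries, since the labels name the same 2 rats in each group. The rat difference correlated across features by 0.62 (FBS with MS-), 0.49 (FBS with MS+) and 0.59 (MS- with MS+). Libraries of a group were not copies (chi-square per degree of freedom 11.5 to 12.8). The members and lists were chosen with earlier results of these data known. All members were named. From each list the genes past the adjusted threshold were named, at most 4 per comparison, or else the most abundant one, and for the sulfatases the 5 features most like each, of which 1 is not reported here. Alternatives were a pseudocount of 0.1, no filter, DESeq2 size factors, library totals, the rat as a block, edgeR 4.0.16, limma-voom and DESeq2 1.42.0 on recovered reads, summed rows, and leaving out each library. EdgeR with the block was added after seeing the data.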

Additional observations from a re-analysis of the deposited data

How the results depend on the processing

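The set was small and each group had 2 libraries, so the counts of calls leaned on single libraries. The adjusted count for MS- with FBS (2) was 1 with no filter on low values, and 0 to 2 with 1 library left out (0 without FBS replicate 1, and 0 without MS- replicate 2). For MS+ with FBS (3) it was 0 to 2 with 1 library left out, and each MS+ library took it to 0. For MS+ with MS- (0) it was 1 with DESeq2 and 0 whichever library was left out. The count under the study rule ranged, with 1 library left out, over 1 to 3 (MS- with FBS), 2 to 3 (MS+ with FBS) and 0 to 1 (MS+ with MS-, Sdc4 without MS- replicate 2). A pseudocount of 0.1, DESeq2 size factors, library totals, edgeR, limma-voom and summed rows left the adjusted counts within 1.5 times.

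With the rat as a replicate block the adjusted counts were 6, 6 and 4, and with edgeR on recovered reads with the replicate block, an alternative chosen after seeing the data, 6, 6 and 4. The block changed no other count of the set by more than 1.5 times.

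Of 336 values of single genes under the alternatives, 283 kept direction and call, 26 gained a call, 18 lost one and 9 changed sign. The sign changes came from leaving out 1 library and touched differences that had not passed. For Sulf1, MS+ against FBS was -0.30 without FBS replicate 1 and -0.17 without MS+ replicate 2, in a range of -0.30 to 0.87, and MS+ against MS- was 0.23 without MS- replicate 2 and 0.12 without MS+ replicate 1, in a range of -0.89 to 0.23. For Sulf2, MS+ against MS- was -0.35 without MS- replicate 1 and -0.26 without MS+ replicate 2, in a range of -0.35 to 0.42. For Gpc4, MS+ against FBS was -0.0224 without FBS replicate 2 and -0.0523 without MS+ replicate 1, in a range of -0.0523 to 0.29, and MS+ against MS- was 0.00811 without MS+ replicate 2, in a range of -0.33 to 0.00811. In such fits the lone library of a group is assumed to vary like the other groups. The cause of the changed counts was not tested. Gpc3 was below the floor, where low expression and absence cannot be told apart at this depth.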
